A study of Mus musculus with 374 samples.

Results

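The 89 nuclear genes of oxidative phosphorylation were described across 5 sorted blood cell populations of 1 mouse. They were chosen by name alone, as the rows of the count table whose symbol starts with Nduf, Uqcr, Cox4 to Cox8 or Atp5, or with Sdh followed by a to d. Pseudogenes were left out, which removed 11 rows, and 89 of the 19829 mouse gene rows remained. By symbol they are 36 genes of complex I, 4 of complex II, 8 of complex III, 13 of complex IV, 16 of complex V and 12 assembly factors. Ndufa4 and its relative Ndufa4l2 are counted in complex I by name, although Ndufa4 is known as a subunit of complex IV. Genes of these families that are not among the rows, such as Ndufs3, Ndufa3, Cox6c and Cox7a1, are not analysed here.

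The study sorted single cells of a C57BL/6 female mouse into a 384-well plate and sequenced them by CEL-seq2, which tags the 3′ end of each mRNA molecule with a unique molecular identifier (UMI). From the bone marrow came the progenitor/stem cells (LSK, gated as Lin- Kit+ Sca1+, 95 wells), erythroblasts (Ter119+ CD44+ with mid to high forward scatter, 96 wells), granulocytes (Mac1+ Gr1+, 96 wells) and small B lymphocytes (B220+ with low forward scatter, 44 wells). Small T lymphocytes (CD3+ with low forward scatter, 43 wells) came from the thymus of the same animal. No mouse carried a mutation or was treated according to the labels, and each population is a single sample from a single animal, so no test between populations was possible and every interval below is a 95% exact interval that covers counting error only.

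The populations held 834812 UMIs on mouse genes in LSK cells, 666728 in erythroblasts, 403506 in granulocytes, 200396 in T lymphocytes and 135808 in B lymphocytes, so values of the lymphocytes are the least precise. The markers of each gate were highest in their own population, from 0.353% of UMIs for the progenitor/stem cell list to 24.7% for the erythroblast list. Haemoglobin mRNA took 23.5% of the UMIs of erythroblasts and 1.21% to 2.83% elsewhere, and the single row Gm42418 took 8.59% to 22.7%, and both lower the share that is left for other genes. One cell, in well A8, is labelled a B lymphocyte although its Gr1 fluorescence lies far above that of the other B lymphocytes, and values without it are given where they bear on a result.

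Oxidative phosphorylation passes electrons from NADH through complex I, or from succinate through complex II, to complex III, cytochrome c and complex IV, and complex V uses the resulting proton gradient to make ATP. Most subunits are encoded in the nucleus, whereas the mitochondrial genome encodes the hydrophobic core subunits of complexes I, III, IV and V and none of complex II. Erythroblasts need mitochondria for haem synthesis and lose them when they become erythrocytes, while mature granulocytes are known for relying on glycolysis.

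The summed share of the 89 genes was highest in erythroblasts and lowest in granulocytes. They held 0.983% (0.959 to 1.01) of the UMIs in erythroblasts, 0.814% (0.795 to 0.833) in LSK cells, 0.742% (0.705 to 0.781) in T lymphocytes, 0.680% (0.637 to 0.725) in B lymphocytes and 0.527% (0.505 to 0.550) in granulocytes. The intervals of the T and B lymphocytes overlapped, and no other neighbours in this order did. With haemoglobin UMIs taken out of the totals the share in erythroblasts was 1.285%, and the others were 0.824%, 0.755%, 0.699% and 0.535% in the same order. As ratios to LSK, the module stood at a log2 ratio of 0.27 (0.22 to 0.32) in erythroblasts, -0.13 (-0.22 to -0.05) in T lymphocytes, -0.26 (-0.36 to -0.16) in B lymphocytes and -0.63 (-0.70 to -0.56) in granulocytes. All 4 of these ratios share the LSK wells as their denominator. The ratio in erythroblasts stayed above 0 under every scaling tried, between 0.05 with each well thinned to 1000 UMIs and 1.24 with median of ratios factors. The ratio in granulocytes turned to 0.14 under TMM factors and 0.30 under median of ratios factors, and those in B and T lymphocytes turned to 0.07 and 0.04 under the latter, so of the 4 only the ratio of erythroblasts kept its sign. Its thinned value of 0.05 is a single random draw whose counting error was not computed. By the median well, given below, erythroblasts at 0.786% were not above LSK cells at 0.792%. TMM and median of ratios factors add 0.86 and 0.97 to every erythroblast ratio, 0.77 and 0.93 to every granulocyte ratio, 0.11 and 0.33 in B lymphocytes and 0.02 and 0.18 in T lymphocytes, and values below are on the scale of library totals unless said otherwise.

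Complex IV and complex V carried most of the erythroblast difference, and within complex IV the gene Cox6a1, described below, gave the largest part. The median log2 ratio of the 9 complex IV genes with at least 50 UMIs was 0.77, against -0.73 for all genes tested. Against LSK, the log2 ratio in erythroblasts was 0.53 (0.42 to 0.64) for complex IV, 0.43 (0.33 to 0.52) for complex V, 0.20 (0.11 to 0.28) for complex I and 0.15 (-0.01 to 0.31) for complex III. Complex II went the other way at -0.44 (-0.69 to -0.19), as did the 12 assembly factors at -1.03 (-1.41 to -0.67). Complex II thus made up 3.25% (2.83 to 3.71) of the module's UMIs in erythroblasts against 5.31% (4.79 to 5.87) in LSK cells, and assembly factors 1.33% (1.06 to 1.64) against 3.28% (2.87 to 3.73). These shares within the module do not depend on scaling factors, while the sign of the complex II ratio does, since it became 0.43 under TMM and 0.53 under median of ratios factors. The complex I ratio was -0.17 in a single random draw that thinned each well, whereas it stayed above 0 as a mean over wells without thinning. In granulocytes complexes I to V lay close together, all below LSK on library totals and all above it under median of ratios factors, between -0.81 (-1.05 to -0.57) for complex III and -0.51 (-0.66 to -0.35) for complex IV. In T lymphocytes complex IV took 17.1% (15.2 to 19.1) of the module, below the 22.0% (19.4 to 24.8) of B lymphocytes and with an interval that overlaps the 19.8% (18.8 to 20.7) of LSK cells. Complex V took 28.8% (26.5 to 31.2) there against 25.0% (24.0 to 26.1) in LSK cells. All these values count Ndufa4, which had 208 of the 2499 complex I UMIs in LSK cells, in complex I. They were not computed with Ndufa4 in complex IV.

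**Figure D1:**
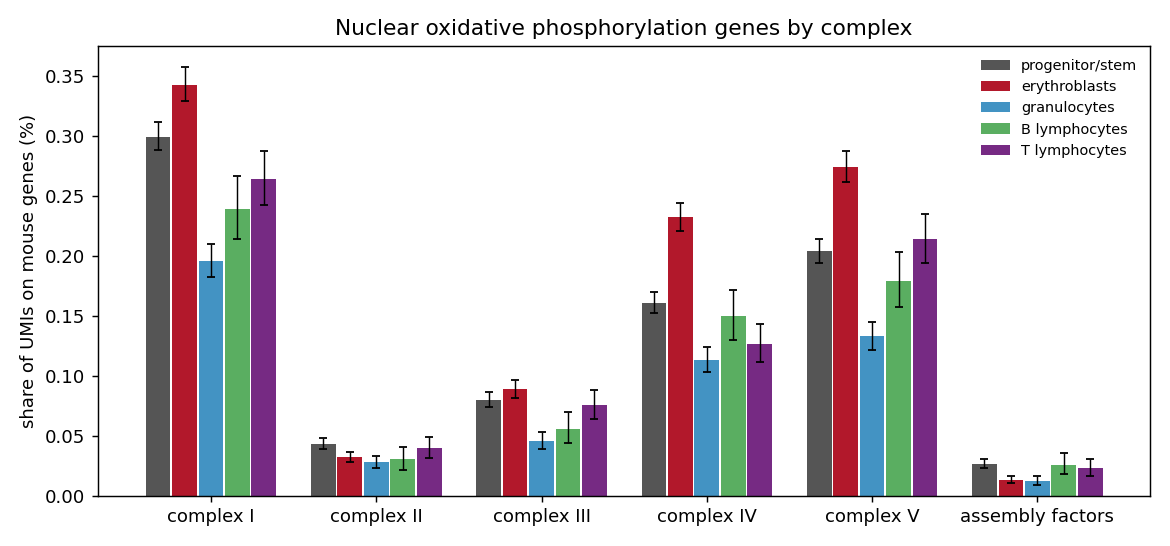
Share of UMIs on mouse genes (%, bars start at 0) taken by the nuclear genes of each complex and by the assembly factors in the 5 populations, with exact 95% intervals for counting error. Erythroblasts have the tallest bars for complexes I, III, IV and V, with 0.232% for complex IV against 0.161% in LSK cells, whereas for complex II and the assembly factors their bars lie below those of LSK cells on this scale of library totals.

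A single sum can hide members that go apart, and in erythroblasts they did. Of the 89 genes, 66 had at least 50 UMIs in erythroblasts and LSK cells together, and their median log2 ratio was 0.23, against -0.73 for all 4792 genes with as many UMIs. Of the 66, 8 were at least 2-fold higher in erythroblasts, where 14.8% of all genes were, and 3 were at least 2-fold lower, where 40.9% of all genes were. Under TMM 38 members were higher and 0 lower, where 27.2% and 23.6% of all genes were, and under median of ratios factors 39 and 0, where 29.6% and 22.0% were. Whether the share of members that were higher lay below or above that of all genes thus turned with the scaling, whereas the share that was lower was below it in each of the 3. A scaling factor shifts the medians of members and of all genes alike.

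Complex IV held the highest ratio and, after Uqcrc2 of complex III, the lowest. Cox6a1, the form of subunit 6a found in most tissues, was the member with the largest ratio. Its level was 622 CPM (UMIs per 1000000 UMIs on mouse genes) in erythroblasts, 258 in B lymphocytes, 190 in T lymphocytes, 188 in granulocytes and 170 in LSK cells, and its log2 ratio of erythroblasts to LSK was 1.87 (1.59 to 2.16). In the wells with at least 1000 UMIs, erythroblasts held 0 to 19 UMIs of Cox6a1 with a median of 4, and LSK cells 0 to 6 with a median of 1. Single cells of the populations overlapped, and 82 of 95 erythroblasts and 68 of 95 LSK cells had a UMI. Cox7a2, the common form of subunit 7a, was at 259 CPM in erythroblasts and 117 in LSK cells, a log2 ratio of 1.14 (0.78 to 1.52). Cox7a2l, a relative of it, moved the opposite way, at 133 CPM in erythroblasts and 329 in LSK cells with a log2 ratio of -1.30 (-1.66 to -0.95). In the wells, Cox7a2l ranged from 0 to 9 UMIs with a median of 3 in LSK cells and from 0 to 8 with a median of 0 in erythroblasts.

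The balance of Cox7a2l and Cox7a2 therefore turned over between the populations. Per UMI of Cox7a2 there were 4.64 (2.58 to 8.96) UMIs of Cox7a2l in T lymphocytes, 3.00 (1.61 to 5.95) in B lymphocytes, 2.81 (2.22 to 3.57) in LSK cells, 1.08 (0.671 to 1.75) in granulocytes and 0.514 (0.394 to 0.668) in erythroblasts. The intervals of LSK cells and both kinds of lymphocytes overlapped one another, and those of granulocytes and erythroblasts lay below that of LSK cells and apart from each other. This ratio is taken within a population, so it does not change with the scaling.

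The sequences just upstream of these 3 genes are shown because the genes encode parts of the same complex and differ in opposite directions. The 250 bases before each start site, from RefSeq on GRCm38.p6, are printed 5′ to 3′ along the gene's own strand. In all, 3 motifs were searched on both strands in the window from 250 bases before to 50 bases after the start, namely the NRF1 core CGCATGCG, the core ETS motif CCGGAAG bound by GABP, and the YY1 core AANATGGCG, where N is any base. These factors are known regulators of respiratory chain genes. Capitals mark matches.
Cox6a1, chr5:115348959-115349208, minus strand: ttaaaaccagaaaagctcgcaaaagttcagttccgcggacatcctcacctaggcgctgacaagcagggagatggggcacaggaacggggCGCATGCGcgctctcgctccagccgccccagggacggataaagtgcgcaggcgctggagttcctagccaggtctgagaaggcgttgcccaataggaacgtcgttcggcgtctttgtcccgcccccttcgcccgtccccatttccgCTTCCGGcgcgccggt
Cox7a2, chr9:79759854-79760103, minus strand: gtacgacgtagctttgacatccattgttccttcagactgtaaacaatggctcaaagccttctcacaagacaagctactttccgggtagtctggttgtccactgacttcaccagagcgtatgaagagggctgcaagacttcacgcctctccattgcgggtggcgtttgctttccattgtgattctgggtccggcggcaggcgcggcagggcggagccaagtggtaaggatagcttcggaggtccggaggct
Cox7a2l, chr17:83514334-83514583, minus strand: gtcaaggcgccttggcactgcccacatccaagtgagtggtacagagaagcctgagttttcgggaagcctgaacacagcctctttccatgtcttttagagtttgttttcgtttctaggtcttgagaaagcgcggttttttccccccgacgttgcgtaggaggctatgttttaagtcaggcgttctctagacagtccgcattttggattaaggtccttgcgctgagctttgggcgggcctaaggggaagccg
Cox6a1 held the NRF1 core and, as its reverse complement, the ETS motif, with no overlap between them, and neither of the others held any of the 3 motifs. Among the 74 members with a promoter in the RefSeq table, 11 (14.9%) held the NRF1 core against 2.07% of 27025 genes, 20 (27.0%) the ETS motif against 9.93%, and 12 (16.2%) the YY1 core against 2.76%. The 27025 genes are all those with a promoter there and were not limited to genes detected in these cells. The members with the NRF1 core included Cox6a1, Atp5k and Atp5g2. Longer spellings of the NRF1 and YY1 motifs were searched first and then shortened, with their counts already seen. How many members match, and which, changes with the spelling, so levels are not compared here between members with and without a motif. A match describes the letters of the window and does not show that a factor binds there.

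The other pairs of related genes kept or changed their balance in their own ways. Cox6b1 and the less widely expressed Cox6b2, alternative forms of subunit 6b, were both higher in erythroblasts, at 331 and 109 CPM against 170 and 50.3 in LSK cells, so that their ratio of 0.330 (0.250 to 0.432) overlapped that of 0.296 (0.204 to 0.420) in LSK cells. In granulocytes Cox6b1 stayed at 193 CPM while Cox6b2 was at 9.91 CPM, a ratio of 0.0513 (0.0136 to 0.137). Atp5g1, Atp5g2 and Atp5g3 encode the same mature c subunit of the complex V rotor ring. Atp5g3 gave most of their UMIs everywhere, and was at 340 CPM in erythroblasts and 241 CPM in LSK cells. Atp5g2 was at 33.5 CPM in LSK cells but at 2 UMIs, or 3.00 CPM, in erythroblasts, which put its UMI ratio to Atp5g3 at 0.00881 (0.00106 to 0.0322) against 0.139 (0.0903 to 0.208). Some of the last bases of Atp5g2 recur in other genes, with 41.4% of the 50-base words of its 3′ end shared. Ndufa4, named for complex I but known as a subunit of complex IV, and its relative Ndufa4l2 had UMI ratios of 0.253 (0.181 to 0.347) in erythroblasts and 0.163 (0.110 to 0.236) in LSK cells, whose intervals overlap.

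**Figure D2:**
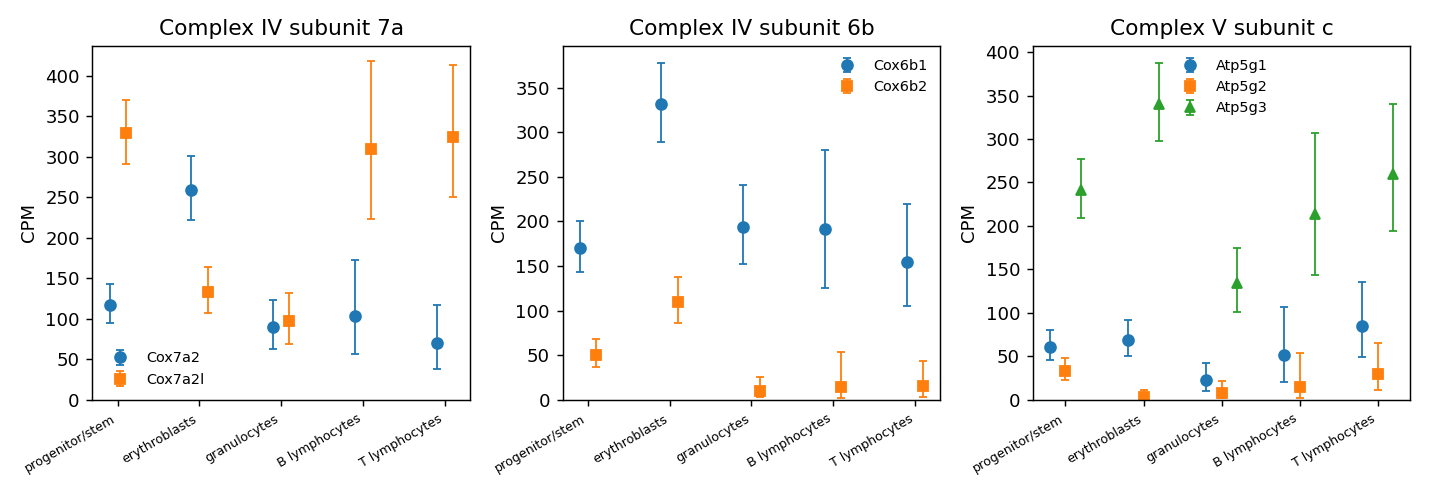
Level in CPM (linear axis from 0) of the related genes of complex IV subunits 7a and 6b and of complex V subunit c in the 5 populations, with exact 95% Poisson intervals. Cox7a2l lies above Cox7a2 in LSK cells and both kinds of lymphocytes, lies near it in granulocytes and lies below it in erythroblasts, at 133 against 259 CPM.

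In complex I, the largest erythroblast ratios were those of Ndufb9 and Ndufb7, accessory subunits of the membrane arm. Ndufb9 was at 265 CPM in erythroblasts, 94.2 in granulocytes, 92.2 in LSK cells, 81.0 in B lymphocytes and 49.9 in T lymphocytes, a log2 ratio to LSK of 1.53 (1.13 to 1.93) in erythroblasts. Ndufb7 was at 174 CPM in erythroblasts and at 36.8 to 64.9 CPM in the others, a log2 ratio of 1.51 (1.02 to 2.01). Against them stood Ndufb5, another membrane arm subunit, at -1.08 (-1.75 to -0.45), and Ndufs8, an iron-sulphur core subunit, at -0.93 (-1.74 to -0.17). Ndufb9 shares exon sequence with the overlapping row Gm49356 on the same strand, so its count is uncertain. Of the genes counted in complex I, those with the most UMIs beside Ndufb9 were Ndufa4 and the accessory subunit Ndufa6. Ndufa4, known as a subunit of complex IV, was at 291 CPM in erythroblasts and 249 in LSK cells (0.22, -0.07 to 0.51). Ndufa6 was at 160 and 205 CPM with a ratio of -0.35, and both intervals hold 0.

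All 4 subunits of complex II had ratios below 0 in erythroblasts on library totals, and all 4 turn to above 0 under TMM and median of ratios factors. The flavoprotein Sdha was at 112 CPM against 165 in LSK cells (-0.56, -0.98 to -0.14), the iron-sulphur protein Sdhb at 84.0 against 107 (-0.34, -0.85 to 0.15), and the membrane anchors Sdhc at 81.0 against 87.4 (-0.11, -0.65 to 0.42) and Sdhd at 42.0 against 73.1 (-0.80, -1.50 to -0.13). Only the intervals of Sdha and Sdhd lay wholly below 0. All 4 nevertheless stood above or near the median of all genes tested, -0.73, with Sdhd just below it.

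In complex III the core protein Uqcrc2 had the lowest ratio of all members tested, at 72.0 CPM in erythroblasts against 190 in LSK cells (-1.40, -1.90 to -0.93). Every 50-base word of its 3′ end also occurs in another annotated gene, so this count is uncertain. The other 7 members of complex III had ratios above 0, led by Uqcrq, a small subunit that binds ubiquinone, at 195 CPM against 111 (0.81, 0.41 to 1.21). Uqcrfs1, the Rieske iron-sulphur protein, was at 148 against 120 (0.31, -0.11 to 0.73). Without the 6 members that share at least 50% of their 3′ end words, the ratio of the module in erythroblasts was 0.31 (0.26 to 0.36).

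Within complex V, 10 of the 11 genes with at least 50 UMIs had erythroblast ratios above 0, as had 1450 of all 4792 genes, and Atp5c1 was the lowest. Atp5a1, the alpha subunit of the catalytic head and the member with the most UMIs in all wells, was at 396 CPM in erythroblasts and 393 in LSK cells (0.01, -0.23 to 0.25). Atp5h, the d subunit of the peripheral stalk, was at 423 against 164 (1.37, 1.07 to 1.67), and Atp5j2, the f subunit of the membrane part, at 370 against 181 (1.03, 0.74 to 1.34). In the wells Atp5h ranged from 0 to 12 UMIs in erythroblasts with a median of 2, and from 0 to 5 in LSK cells with a median of 1, so the ranges overlapped. The gamma subunit Atp5c1, the central shaft, was at -0.46 (-0.81 to -0.11), which also turns to above 0 under both factors.

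**Figure D3:**
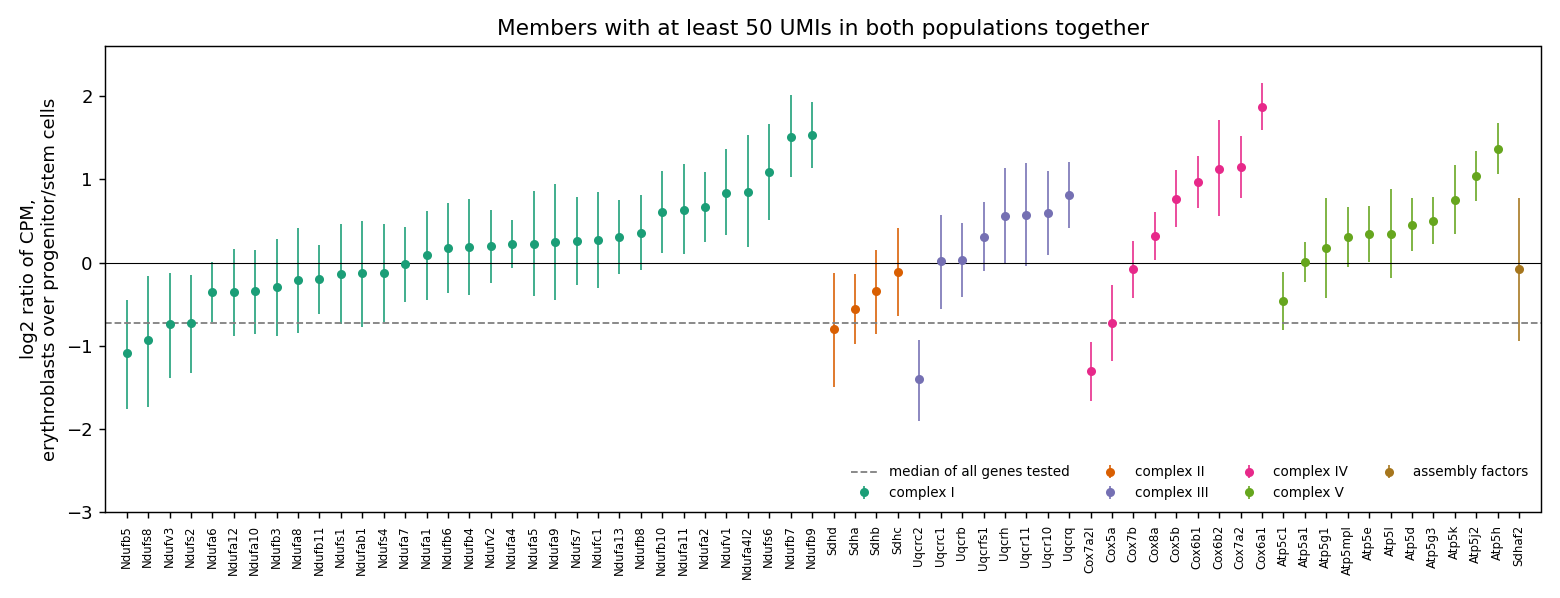
Log2 ratio of CPM, erythroblasts over LSK cells, for the 66 members with at least 50 UMIs in both populations together, ordered within each complex, with exact 95% intervals; the solid line marks 0 and the dashed line the median of all genes tested (-0.73). Most points lie above the dashed line, Cox6a1 is the highest at 1.87, and Uqcrc2, Cox7a2l and Ndufb5 are the lowest at -1.40, -1.30 and -1.08.

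The assembly factors were scarce, and only Sdhaf2 reached 50 UMIs in erythroblasts and LSK cells together. By summed level they took 0.0267% (0.0233 to 0.0305) of the UMIs in LSK cells, 0.0258% (0.0180 to 0.0358) in B lymphocytes, 0.0230% (0.0168 to 0.0306) in T lymphocytes, 0.0130% (0.0105 to 0.0161) in erythroblasts and 0.0121% (0.00898 to 0.0161) in granulocytes. By CPM 11 of the 12 were lower in erythroblasts than in LSK cells, where 81.5% of the 6015 genes within their range of 9 to 51 UMIs were, and 9 of 12 were lower in granulocytes, where 78.6% of 5828 genes of 9 to 46 UMIs were. These counts lie near the background. The complex I factor Ndufaf4 had 18 UMIs in LSK cells and 1 in erythroblasts, and Ndufaf5 had 11 and 0, where 3 UMIs, the floor set for lower counts, equal 4.50 CPM. Sdhaf2, needed to attach flavin to Sdha, was the exception in B lymphocytes, at 140 CPM from 19 UMIs against 34.7 CPM from 29 UMIs in LSK cells, a log2 ratio of 2.01 (1.09 to 2.89). Its UMIs in B lymphocytes and LSK cells together fell short of the minimum of 50, so it is not among the members compared there. These 3 factors were named after their values were seen.

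In granulocytes 62 members could be compared with LSK cells, none was at least 2-fold higher, where 13.7% of all 4440 genes were, and 18 were at least 2-fold lower, where 42.7% of all genes were. Under TMM 3 were higher and 1 lower, where 24.6% and 23.6% of all genes were, and under median of ratios factors 9 and 1, where 27.8% and 20.1% were. Their median of -0.62 lay beside -0.76 for all genes, so the members were not lower than genes in general. The lowest ratios were those of Ndufa5, a subunit of the peripheral arm, at -2.15 (-3.84 to -0.83), Cox7a2l at -1.77 (-2.29 to -1.28), and Ndufa4, Ndufab1 and Ndufa10 at -1.65, -1.65 and -1.62. Ndufab1 doubles as the mitochondrial acyl carrier protein. Ndufa5 rested on 5 UMIs in granulocytes against 46 in LSK cells. The highest were Ndufv3 at 0.49 (-0.07 to 1.05), Sdhd at 0.25 (-0.40 to 0.87), Ndufs4 at 0.23 (-0.42 to 0.86), Ndufa13 at 0.20 (-0.33 to 0.72) and Cox6b1 at 0.18 (-0.23 to 0.59), and each of these intervals holds 0. Within complex II, Sdha (-1.20, -1.83 to -0.62) and Sdhc (-1.33, -2.27 to -0.50) were lower while Sdhb (-0.34, -0.95 to 0.25) and Sdhd were near LSK levels.

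In B lymphocytes 61 members could be compared, with none at least 2-fold higher, where 6.56% of all 3793 genes were, and 9 at least 2-fold lower, where 27.9% were. Without the cell of well A8 there were 0 and 7, where 6.37% and 27.2% of all genes were. Under TMM 0 were higher and 5 lower, where 7.88% and 24.0% were, and under median of ratios factors 1 and 4, where 10.8% and 19.1% were. Their median was -0.23 against -0.44 for all genes. Markers of other cells were present in these wells. All 8 granulocyte markers were detected and took 0.669% of the UMIs, against 0.229% in LSK cells and 15.2% in granulocytes, and 0.297% without the cell of well A8, since only 390 of their 909 UMIs were in the other wells. All 7 erythroblast markers, 4 of them haemoglobin genes, took 2.92%, against 1.33% in LSK cells, and 2.98% without that cell. Haemoglobin gave 3842 of their 3964 UMIs. Against LSK cells, 6 were at least 2-fold higher and 1 at least 2-fold lower, where 6.56% and 27.9% of all genes were. T lymphocytes also lay above LSK cells on both lists, at 0.365% for granulocyte and 1.84% for erythroblast markers. The part of the erythroblast markers in the ratios was not tested. Since LSK cells gave most of the UMIs, a gene passed the minimum chiefly through its count there. Ndufa12, an accessory subunit of complex I, was lowest at -1.76 (-3.66 to -0.34), followed by Ndufa4 at -1.62 (-2.65 to -0.75), Uqcrc2 at -1.52 (-2.68 to -0.56), Ndufab1 at -1.50 (-3.82 to 0.13) and Ndufa8 at -1.16 (-3.09 to 0.28). Ndufs6, Cox6a1, Ndufa11, Uqcrh and Atp5k were highest, at 0.81, 0.60, 0.45, 0.44 and 0.36, and only the interval of Cox6a1 (0.02 to 1.14) lay above 0. Without the cell of well A8 the module's ratio to LSK was -0.23.

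By summed share T lymphocytes were the closest to LSK cells in the nuclear genes, whereas by the median well and per ERCC UMI, both given below, erythroblasts were. Of 60 members compared, none was at least 2-fold higher, where 8.35% of all 4060 genes were, and 2 were at least 2-fold lower, where 17.8% were, and their median was -0.12 against -0.22 for all genes. The 2 were Cox8a, a small subunit of complex IV and, with Cox6a1 and Cox7a2l, the most abundant of its genes, at 99.8 CPM against 241 (-1.27, -2.01 to -0.61), and Ndufb8, a membrane arm subunit of complex I, at 44.9 against 102 (-1.18, -2.36 to -0.19). Ndufa4, Ndufb9 and Ndufa5 followed at -0.89, -0.89 and -0.88. Ndufb8 overlaps the row Gm20538 on the same strand and is uncertain. The highest ratios were those of Uqcrq at 0.56 (-0.06 to 1.15), Ndufa1 at 0.52 (-0.24 to 1.22), Ndufa13 at 0.51 (-0.14 to 1.12), and Atp5g1 and Uqcr10 at 0.47 each.

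Set directly against B lymphocytes, T lymphocytes had a module ratio of 0.13 (0.01 to 0.25), or 0.10 without the cell of well A8, and -0.03 under median of ratios factors. Only 12 members had 50 UMIs in both together. Of these 1, Atp5c1, was at least 2-fold higher, where 18.2% of all 1103 genes were, and none was at least 2-fold lower, where 9.34% were. Atp5c1 was at 245 CPM in T and 110 CPM in B lymphocytes (1.15, 0.29 to 2.09). The next were Atp5mpl, Atp5a1, Atp5h and Cox7b at 0.70, 0.53, 0.48 and 0.44, and the lowest were Atp5e, Cox6a1, Cox6b1, Atp5d and Atp5j2 at -0.51, -0.44, -0.31, -0.20 and -0.01, all with intervals that hold 0.

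Across all 5 populations, 68 members had at least 50 UMIs in total. Of these, 36 had their highest CPM in erythroblasts, 13 in T lymphocytes, 11 in LSK cells, 4 in granulocytes and 4 in B lymphocytes. Of all 6317 genes with as many UMIs, 18.7% were highest in erythroblasts, 20.9% in T lymphocytes, 31.9% in LSK cells, 14.1% in granulocytes and 14.3% in B lymphocytes, beside 52.9%, 19.1%, 16.2%, 5.88% and 5.88% of the members. The lowest CPM fell in granulocytes for 32, in B lymphocytes for 17, in T lymphocytes for 12, in erythroblasts for 5 and in LSK cells for 2, or 47.1%, 25.0%, 17.6%, 7.35% and 2.94%, beside 33.6%, 13.4%, 10.1%, 38.3% and 4.67% of all genes. Under TMM, an alternative chosen after seeing the data, 57 members were highest in erythroblasts, or 83.8% beside 35.2% of all genes, and 12 were lowest in granulocytes, or 17.6% beside 21.7%. The count of lowest levels in granulocytes thus depends on the scaling. At the other end, 7 members had fewer than 10 UMIs in all 374 wells, namely Atp5b with 8, Cox6a2 with 7, Cox4i1 and Ndufb2 with 5 each, Atp5j with 2, and Atp5f1 and Cox4i2 with 1 each. Atp5b encodes the catalytic beta subunit that pairs with the alpha subunit of Atp5a1, which had 790 UMIs. Of the 3′ end words of these 7 genes at most 38.6% recur elsewhere, and why their counts are low was not tested.

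Single cells differed widely within each gate. The module took a median of 0.792% (0.449 to 1.34, lowest and highest well) of the UMIs of an LSK cell, 0.786% (0.147 to 1.99) of an erythroblast, 0.726% (0.393 to 1.39) of a T lymphocyte, 0.645% (0.243 to 1.33) of a B lymphocyte and 0.414% (0.0423 to 1.41) of a granulocyte, over the 369 wells with at least 1000 UMIs. The medians of LSK cells and erythroblasts were thus alike although the sums differed, and with haemoglobin left out of the totals they were 0.800% and 1.14%. Erythroblasts had the widest range in percentage points, and granulocytes the widest as a fold from the lowest to the highest well. Within erythroblasts the module's share moved with CD44 fluorescence (Pearson r = 0.60 over 95 wells, 0.52 with haemoglobin left out), with forward scatter (0.56) and with the total UMI count of the well (0.48). CD44 and cell size are known to fall as erythroblasts mature. In granulocytes the share moved against CD44 (r = -0.55 over 94 wells), and in LSK cells it was nearly flat with CD44 (0.17). With depth, the share was nearly flat in LSK cells (0.07), rose in granulocytes (0.36), and fell in B lymphocytes (-0.38 over 43 wells) and T lymphocytes (-0.36 over 42 wells). The wells of a gate share a plate and a library preparation, and how much of these relations follows from depth was not tested.

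**Figure D4:**
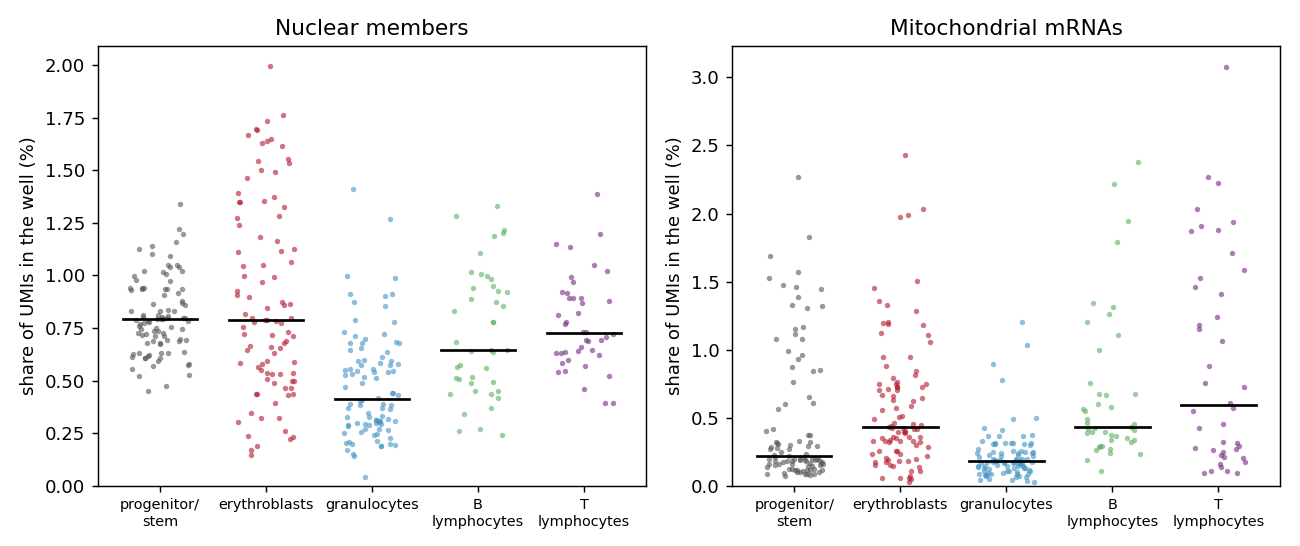
Share of a well's UMIs (%) on the nuclear members (left) and on the mitochondrial mRNAs (right), with a point for each of the 369 wells with at least 1000 UMIs and a line at the median of each population. Nuclear shares of erythroblasts spread from 0.147% to 1.99% around a median of 0.786%, close to the LSK median of 0.792%, while granulocytes have the lowest median at 0.414%.

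Set against the ERCC spike-in RNA of the same wells, the members had 0.170 (0.166 to 0.175) UMIs per ERCC UMI in erythroblasts, 0.153 (0.149 to 0.157) in LSK cells, 0.0751 (0.0712 to 0.0791) in T lymphocytes, 0.0510 (0.0477 to 0.0545) in B lymphocytes and 0.0510 (0.0488 to 0.0532) in granulocytes. On this scale lymphocytes lay well below LSK cells, B lymphocytes met granulocytes, and these wells also had fewer UMIs, with medians of 4347 in T lymphocytes, 3880 in granulocytes and 3028 in B lymphocytes against 7959 in LSK cells and 6114 in erythroblasts. UMIs per ERCC UMI are a different quantity from the share of a cell's mRNA.

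The 12 mitochondrial mRNAs in the table did not follow the nuclear order. They took 0.912% (0.871 to 0.954) of UMIs in T lymphocytes, 0.700% (0.680 to 0.720) in erythroblasts, 0.635% (0.594 to 0.679) in B lymphocytes, 0.493% (0.478 to 0.508) in LSK cells and 0.224% (0.209 to 0.239) in granulocytes. All 25 rows of the mitochondrial genome together, mostly the 2 ribosomal RNAs, took 3.24% in erythroblasts, 2.88% in B lymphocytes, 2.03% in T lymphocytes, 1.60% in LSK cells and 1.09% in granulocytes. Per UMI of a nuclear subunit there were 1.27 (1.18 to 1.36) mitochondrial mRNA UMIs in T lymphocytes, 0.972 (0.884 to 1.07) in B lymphocytes, 0.721 (0.695 to 0.749) in erythroblasts, 0.626 (0.602 to 0.651) in LSK cells and 0.435 (0.402 to 0.470) in granulocytes. T lymphocytes, whose nuclear share was below that of LSK cells, thus had the largest mitochondrial mRNA share. Per ERCC UMI the order was different. Erythroblasts had 0.121 (0.118 to 0.125) mitochondrial mRNA UMIs, LSK cells 0.0926 (0.0896 to 0.0956) and T lymphocytes 0.0922 (0.0879 to 0.0968). B lymphocytes had 0.0477 (0.0445 to 0.0510) and granulocytes 0.0216 (0.0202 to 0.0231). On that scale T lymphocytes met LSK cells and B lymphocytes lay below them.

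By complex, the mitochondrial mRNAs in erythroblasts stood at log2 ratios to LSK of 0.88 (0.76 to 0.99) for the 3 of complex IV, 0.76 (0.51 to 1.02) for the 2 of complex V, 0.36 (0.27 to 0.45) for the 6 of complex I and 0.20 (0.06 to 0.34) for mt-Cytb of complex III. This order, with complex IV and V above I and III, is also the order of the nuclear subunits. In granulocytes the ratios were -1.69 (-1.95 to -1.45) for complex IV, -1.84 (-2.44 to -1.28) for complex V, -1.26 (-1.51 to -1.03) for mt-Cytb and -0.82 (-0.96 to -0.68) for complex I, of which only that of complex I turns to above 0, under median of ratios factors, so that the mitochondrial subunits of complex IV were lower than the nuclear ones at -0.51. In T lymphocytes they were 0.94 (0.83 to 1.06) for complex I, 1.09 (0.93 to 1.26) for mt-Cytb, 0.58 (0.40 to 0.75) for complex IV and 0.83 (0.47 to 1.19) for complex V.

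These mitochondrial ratios rest on LSK wells that differ by plate row. The mitochondrial mRNA share was 0.213% and 0.282% in rows K and L and 0.720% and 0.725% in rows M and N, all of them LSK cells, while the nuclear share of the same 4 rows was 0.784%, 0.881%, 0.782% and 0.811%. The other populations varied less between rows, with 0.667% to 0.721% in the 4 rows of erythroblasts and 0.188% to 0.288% in the 4 rows of granulocytes. With rows K, L, M or N alone as the LSK reference, the mitochondrial log2 ratio of erythroblasts was 1.72, 1.31, -0.04 or -0.05, against 0.50 with all rows. That of granulocytes was 0.07, -0.33, -1.69 or -1.70, that of B lymphocytes 1.58, 1.17, -0.18 or -0.19, and that of T lymphocytes 2.10, 1.69, 0.34 or 0.33. Only the T lymphocyte ratio kept its sign over all 4 rows, and the ratio of T over B lymphocytes, 0.52 (0.40 to 0.64), does not involve these wells. Within LSK cells the nuclear and mitochondrial shares of a well showed hardly any relation (r = -0.08 over 95 wells), and within erythroblasts they moved together (r = 0.62 over 95 wells). The LSK value pools rows K to N, whose mitochondrial shares differ, and no value within a row was computed. It is therefore not set against that of erythroblasts.

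**Figure D5:**
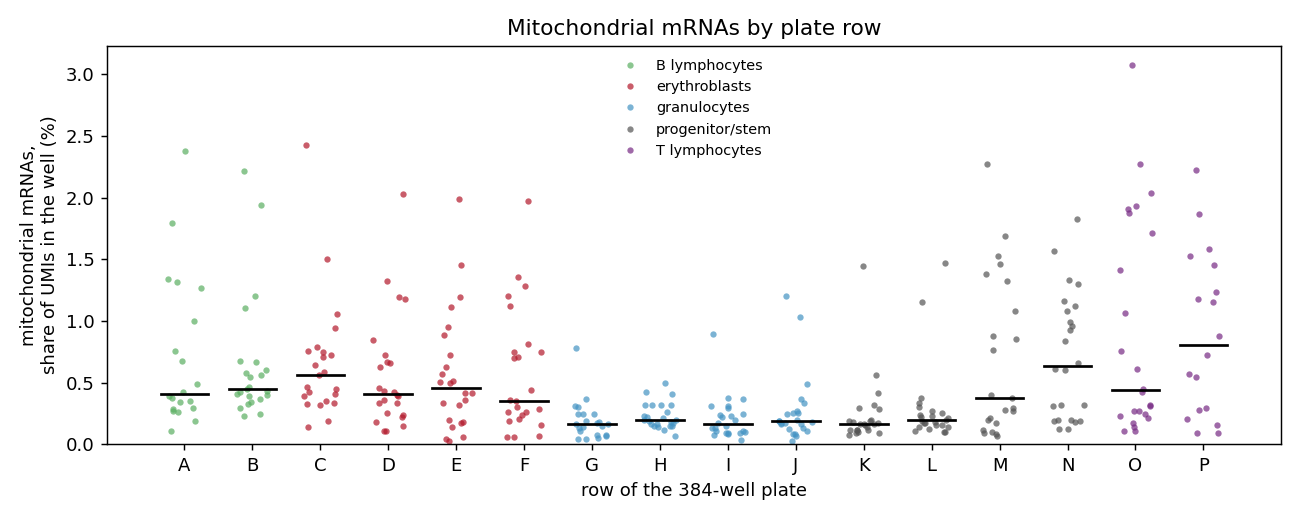
Share of a well's UMIs (%) on the mitochondrial mRNAs by row of the 384-well plate, with a point for each well with at least 1000 UMIs, coloured by population, and a line at the row median. The LSK rows K and L sit low (0.213% and 0.282% of summed UMIs) and the LSK rows M and N sit high (0.720% and 0.725%), next to the T lymphocyte rows O and P.

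On library totals, 6 other lists of mitochondrial genes lay below LSK cells in erythroblasts, while the respiratory subunits and the summed pair Cycs and Cyc1 lay above them. In erythroblasts the summed log2 ratio to LSK was 0.30 (0.25 to 0.35) for the 77 subunits of complexes I to V and 0.45 (0.04 to 0.86) for the pair Cycs and Cyc1, of which Cyc1, the cytochrome subunit of complex III, was higher (0.87, 0.39 to 1.36) and Cycs, cytochrome c itself, was at -0.85 (-1.79 to 0.04). It was -0.49 (-0.59 to -0.39) for 72 mitochondrial ribosomal protein genes, -0.31 (-0.46 to -0.17) for 13 genes of the TCA cycle, -0.36 (-0.54 to -0.18) for 25 assembly genes outside the rule, -0.83 (-1.00 to -0.67) for 6 carriers and porins and -1.02 (-1.32 to -0.73) for 12 genes of mitochondrial DNA transcription and maintenance. Of the ribosomal protein genes 32 had at least 50 UMIs, 3 of them 2-fold or more higher and 13 lower, or 9.38% and 40.6% of them beside 14.8% and 40.9% of all genes. Of the TCA cycle genes 10 were tested, with 1 higher and 1 lower, and of the carriers and porins 5, with 0 higher and 2 lower. These 5 sums move by the same shift as all genes under TMM and median of ratios factors, so all but that of the transcription and maintenance genes turn to above 0 under both. The medians of the tested ribosomal protein and TCA cycle genes, -0.76 and -0.56, lay near the -0.73 of all genes, and 8 transcriptional regulators of mitochondrial genes summed to -0.49 (-0.75 to -0.24). In granulocytes the 5 lists lay below LSK on library totals, with the ribosomal proteins, the TCA cycle and the assembly genes turning to above 0 under median of ratios factors, from -0.76 (-0.89 to -0.64) for the ribosomal proteins to -1.35 (-1.77 to -0.96) for the transcription and maintenance genes, beside -0.61 (-0.68 to -0.54) for the subunits. In T lymphocytes they lay between -0.29 (-0.52 to -0.07) for the TCA cycle and -0.15 (-0.42 to 0.11) for the assembly genes outside the rule, beside -0.13 (-0.21 to -0.05) for the subunits.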

How the data were processed

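CEL-seq2 profiles of single cells from 5 gates of 1 mouse were used, each gate being 1 sample. UMI counts were used as the authors deposited them, as whole numbers for each well that scPipe had made, a pipeline in which reads are aligned, assigned to exons, demultiplexed and collapsed by UMI. For the aligner version, genome build, annotation and strand setting, the entry is "not given in the sources used here". Columns were matched to the labels by well, all 374 well barcodes were distinct, and 9 columns had no matching sample and were left aside. Symbols, exon overlaps and 3′ end words (50 bases, within the last 300 bases of the transcripts) came from GENCODE M21, and promoters from RefSeq, on GRCm38.

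UMI counts were summed per population and divided by the UMIs on mouse genes. Intervals are 95% exact Poisson (levels), binomial (shares) and conditional binomial (ratios) intervals. UMIs tag 1 end per molecule, so CPM was not divided by length. Genes with at least 50 UMIs in both populations together were compared, and 2-fold or more was counted as higher or lower. For medians, rankings and counts of higher and lower genes, any count below 3 UMIs in either population was raised to a floor of 3 UMIs. No doublet caller was run on these index-sorted wells. In sums simulated as independent Poisson counts, the intervals covered the simulated ratio for 95.7% of 4792 genes (erythroblasts), 96.3% of 4440 (granulocytes), 96.1% of 3793 (B lymphocytes) and 96.7% of 4060 (T lymphocytes) over LSK, and 96.1% of 1103 for T over B lymphocytes. In the same order 0.283%, 0.472%, 4.04%, 2.12% and 0.221% of unchanged genes passed 2-fold. The intervals assume such counts, so their coverage was built in and says nothing of the spread between cells, rows or animals. Members, lists and comparisons were chosen with earlier results of these data known. The genes named are the 5 highest and 5 lowest ratios of each comparison, the 3 most abundant of complexes I, III, IV and V, all of complex II, and fixed isoform genes. Alternatives changed the denominator, the scaling (TMM from edgeR 4.0.16, median of ratios from DESeq2 1.42.0), the weighting, depth and choice of wells, the UMI minimum and the fold. Python 3.11.15 with scipy 1.17.1 and R 4.3.3 were used.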

Additional observations from a re-analysis of the deposited data

How the results depend on the processing

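No paired analysis was possible because each population is 1 sample and the labels number no replicates, so no library could be left out either. Depth limits the lymphocytes most, where 3 UMIs equal 22.1 CPM (B) and 15.0 CPM (T). The cause of the moves below was not tested. Ratios are log2 to LSK in the order erythroblasts, granulocytes, B and T lymphocytes unless named. Module and mitochondrial mRNA ratios not given stayed within their counting interval. Of 222 ratios of complexes and assembly factors under the alternatives, 60 left their interval, and 22 of these changed sign. Of 320 ratios of the 5 highest and 5 lowest members of each comparison, 56 left it, and 10 of these changed sign. Thinning, a single random draw of fewer UMIs, gave 15 of these 56 and 7 of these 10. For the complexes it gave 10 of the 60 and 6 of the 22. The intervals are those of the full counts and do not cover the counting error of that draw. Ndufab1 in B lymphocytes turned to 0.41 with wells thinned to 1000 UMIs. It had 3 UMIs there before thinning, so the floor set its thinned level and the turn is no measured reversal. Among all members tested against LSK, 42 of 66 in erythroblasts were above 0, and 62 under TMM and 63 under median of ratios. In granulocytes 11 of 62 became 36 and 43, in B lymphocytes 16 of 61 became 20 and 36, and in T lymphocytes 26 of 60 became 27 and 35.

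The module's ratio became 0.64 in erythroblasts without haemoglobin, and without haemoglobin, Gm42418 and mt- genes 0.64 in erythroblasts, -0.040 in B lymphocytes and -0.020 for T over B lymphocytes. TMM gave 1.13, 0.14 and -0.15 for the first 3, and median of ratios gave 1.24, 0.30, 0.069 and 0.043, and -0.026 for T over B. Thinning gave 0.051 and -0.74, and the mean over wells 0.13, -0.80 and -0.14. Median of ratios also turned complexes I to V in granulocytes to 0.32, 0.29, 0.12, 0.43 and 0.31 and complex I in B lymphocytes to 0.0057, and TMM turned complexes I, II, IV and V in granulocytes to 0.15, 0.13, 0.26 and 0.15. In erythroblasts complex II turned to 0.43 under TMM and 0.53 under median of ratios, and complex I to -0.17 in the single draw of thinned wells but not as a mean over wells.

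The mitochondrial mRNA ratio was 0.87 in erythroblasts without haemoglobin, and without haemoglobin, Gm42418 and mt- genes 0.87 there, 0.59 in B lymphocytes and 0.37 for T over B. TMM gave 1.37 and -0.37 in erythroblasts and granulocytes, and median of ratios 1.47, -0.21, 0.69 and 1.06, and 0.37 for T over B. Thinning gave 0.32, -0.88 and 0.52, and 0.38 for T over B, and the mean over wells 0.35 in erythroblasts, 0.51 in B lymphocytes and 0.40 for T over B. With LSK row K, L, M or N alone, alternatives chosen after seeing the data, it was 1.72, 1.31, -0.041 or -0.052 in erythroblasts, 0.073, -0.33, -1.69 or -1.70 in granulocytes, 1.58, 1.17, -0.18 or -0.19 in B lymphocytes and 2.10, 1.69, 0.34 or 0.33 in T lymphocytes.

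Counts of members at least 2-fold higher and lower are given where either moved by over 1.5 times, each with the shares of all genes higher and lower under the same setting. With no minimum, a gene at 3 UMIs or fewer in both populations was set to the floor in both. Its ratio is then that of the library totals, 2.62 for B lymphocytes over LSK. In granulocytes, B and T lymphocytes against LSK such genes count as higher, which is no measured difference. In erythroblasts 8 and 3 (all genes 14.8% and 40.9%) became 16 and 1 (all genes 18.8% and 31.9%) without haemoglobin, Gm42418 and mt- genes, 38 and 0 (all genes 27.2% and 23.6%) under TMM, 39 and 0 (all genes 29.6% and 22.0%) under median of ratios, 8 and 8 (all genes 12.1% and 49.4%) at 20 UMIs, 8 and 12 (all genes 7.27% and 31.5%) with no minimum and 18 and 8 (all genes 19.6% and 54.8%) at 1.5-fold. In granulocytes 0 and 18 (all genes 13.7% and 42.7%) became 3 and 1 (all genes 24.6% and 23.6%) under TMM, 9 and 1 (all genes 27.8% and 20.1%) under median of ratios, 0 and 28 (all genes 11.7% and 48.2%) at 20 UMIs, 0 and 9 (all genes 15.7% and 41.4%) at 100 UMIs, 4 and 30 (all genes 38.8% and 25.0%) with no minimum and 0 and 31 (all genes 18.6% and 55.1%) at 1.5-fold. In B lymphocytes 0 and 9 (all genes 6.56% and 27.9%) became 1 and 4 (all genes 9.12% and 21.3%) without haemoglobin, Gm42418 and mt- genes, 0 and 5 (all genes 7.88% and 24.0%) under TMM, 1 and 4 (all genes 10.8% and 19.1%) under median of ratios, 1 and 11 (all genes 7.51% and 19.3%) at 20 UMIs, 0 and 3 (all genes 6.02% and 27.1%) at 100 UMIs, 9 and 11 (all genes 51.0% and 8.01%) with no minimum and 2 and 16 (all genes 12.6% and 44.4%) at 1.5-fold. In T lymphocytes 0 and 2 (all genes 8.35% and 17.8%) became 0 and 7 (all genes 9.17% and 19.4%) at 20 UMIs, 0 and 1 (all genes 8.40% and 16.0%) at 100 UMIs, 6 and 7 (all genes 46.8% and 8.19%) with no minimum and 0 and 9 (all genes 16.1% and 32.0%) at 1.5-fold. For T over B lymphocytes 1 and 0 (all genes 18.2% and 9.34%) became 0 and 0 (all genes 14.7% and 11.3%) under median of ratios, 7 and 2 (all genes 20.1% and 9.86%) at 20 UMIs, 0 and 0 (all genes 16.4% and 8.06%) at 100 UMIs, 8 and 4 (all genes 8.55% and 6.49%) with no minimum and 2 and 0 (all genes 34.3% and 16.0%) at 1.5-fold.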
